A study of Rattus norvegicus with 6 samples.

Results

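The genes described here are 10 transcripts that act as feedback on the ERK pathway: the dual-specificity phosphatase genes Dusp4, Dusp5 and Dusp6, the Sprouty genes Spry1, Spry2 and Spry4, the SPRED genes Spred1 and Spred2, and the ETS factor genes Etv4 and Etv5. They were taken by gene symbol from a table of 40456 genes, and all 10 were found and passed the filter on low counts. The study reduced the long non-coding RNA Tug1 in H9c2 (2-1) cells, a clonal myoblast line from embryonic rat heart that the labels call wild type and type as cardiomyocyte. All cells, control and knockdown alike, were differentiated for 5 days in 1% serum with 1 µM retinoic acid and then carried a locked nucleic acid gapmer at 25 nM for 24 h. The labels give 3 libraries with a negative control gapmer and 3 with the Tug1 gapmer. Nothing in the labels says that the libraries came from separate cultures, so the spread between them may be technical. The gene set was selected on its fold changes between these same knockdown and control libraries, so those values are a description and no p-value is given for its genes.

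Gapmers are antisense oligonucleotides that pair with an RNA and have it cut by RNase H. Both sequences, as the labels give them, are shown because they are the only labelled difference between the groups. They are written 5′ to 3′ and are 16 bases long.
Tug1 gapmer: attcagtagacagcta
Negative control gapmer: gctcccttcaatccaa
Each group has 1 gapmer sequence, so what the Tug1 gapmer does through Tug1 and what it may do otherwise cannot be told apart.

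Growth factor receptors switch on the small GTPase RAS, which activates the kinases RAF, MEK and ERK in turn. ERK activity raises transcription of its own brakes: phosphatases that remove phosphate from ERK, and Sprouty and SPRED proteins that hold back RAS and RAF. The PEA3 factors Etv4 and Etv5 are transcribed under the same control and carry part of the response to growth factors, and the repressor Capicua keeps many of these genes silent until ERK releases it. Their transcript levels are widely used as a readout of the pathway, but no phosphorylated protein was measured here.

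Promoter sequences from RefSeq (build GRCr8) spanned 250 bases before to 50 after the start. They were matched for 8 of the 10 genes, while Dusp4 and Etv4 had no entry and were not searched. The promoters of Dusp6, Spry4 and Dusp5 are shown because they hold the only matches to the motifs searched. The Capicua octamers TGAATGAA, TGAATGGA, TCAATGAA and TCAATGGA, searched on both strands, were found in 2 of the 8 genes, Dusp6 and Spry4, and in 4.26% of 33469 promoters of the same length. The Dusp6 promoter held 2 such octamers, and 0.242% of all promoters held 2 or more. Its 2 sites lie in windows at chr7:35979556-35979585 and chr7:35979575-35979603, plus strand, with the octamer in capitals as its reverse complement.
Dusp6, first site: gagagaatgtaTCCATTGAgacgctggctg
Dusp6, second site: gacgctggctgtttgtaTCCATTGAggag
In the Spry4 promoter the letters TGAATGG, a run chosen after the sequence was seen and overlapping 1 of the octamers, occurred 4 times, which no other of the 33469 promoters reached. Capitals mark its reverse complement, and the whole octamer where there is one. The fourth run lies after the start and is not printed; the other 3 are in the 250 bases before it, at chr18:30702547-30702796, minus strand.
Spry4: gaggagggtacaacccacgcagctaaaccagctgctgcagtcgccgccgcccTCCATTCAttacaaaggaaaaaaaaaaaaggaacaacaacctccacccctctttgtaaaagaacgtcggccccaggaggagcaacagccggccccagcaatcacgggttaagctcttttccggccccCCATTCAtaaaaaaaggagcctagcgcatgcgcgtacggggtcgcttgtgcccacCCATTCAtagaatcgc
The Dusp5 promoter held 2 adjoining CArG boxes, the site bound by serum response factor, which 1.64% of all promoters carry at least once and 0.0209% carry at least 2 times. This motif was also chosen after the sequences were seen. The boxes are in capitals in the stretch chr1:262543667-262543737, plus strand.
Dusp5: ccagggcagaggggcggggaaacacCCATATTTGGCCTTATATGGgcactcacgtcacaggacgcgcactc
The ETS motif CCGGAAG, the AP-1 motif TGANTCA and the cyclic AMP response element TGACGTCA, searched on both strands, had no match in the 8 promoters, against 8.75%, 7.33% and 1.83% of all promoters. A match is a run of letters and not a measured binding site.

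Library totals lay between 12978548 and 13544337 counts. Levels are in CPM, counts scaled to library size with edgeR's TMM factors, at which 1 CPM was 12.9 to 13.8 counts. CPM does not account for transcript length, so levels are compared between libraries and not between genes. The targeted Tug1 had 54.6, 51.9 and 55.3 CPM in control replicates 1 to 3 and 11.9, 11.2 and 12.4 CPM in knockdown replicates 1 to 3. Its log2 fold change was -2.19 (SE 0.0786, Benjamini-Hochberg adjusted p 4.39e-16 in the edgeR quasi-likelihood fit). Of 14 cardiomyocyte markers only 5 were above 3 counts in every library (Tnnt2, Actc1, Myl2, Gata4 and Pln), while Myh6, Myh7, Nkx2-5, Tbx5 and Ryr2 were at or near 0. Of 12 skeletal muscle markers, 11 were above 3 counts in every library.

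Over the whole set, 9 of the 10 feedback genes passed the threshold (adjusted p under 0.05, edgeR quasi-likelihood fit), and these 9 were lower after knockdown. The background was large: 61.7% of 14216 tested genes were called, 30.9% lower and 30.8% higher. In the same 9 genes each knockdown library lay below each control library, a separation that 32.6% of all tested genes showed in that direction. Dusp4, Dusp6 and Spry1 were called with a log2 fold change of -1 or beyond, as were 5.21% of tested genes. The median log2 fold change of the set was -0.59, beside 0.00 for all tested genes. Since the set was selected on this comparison, nothing is read from these shares. In bulk RNA, fewer cells that express a gene and less RNA per cell cannot be told apart. The skeletal muscle markers summed to 1281 to 1294 CPM in control libraries and 1713 to 1862 CPM in knockdown libraries, although Myod1 of that list was lower (-0.32). The cardiomyocyte markers summed to 382 to 412 CPM in control and 430 to 485 CPM in knockdown libraries. Most of this sum was Tnnt2 (on average 348 and 410 CPM), and Pln of that list was lower (-0.68). The fibroblast markers summed to 37225 to 38912 CPM in control and 32286 to 34945 CPM in knockdown libraries, although Dcn of that list was higher (0.57). Most of that sum was Col1a1 and Col1a2 (on average 21659 and 15114 CPM in control libraries). Col1a2 and Lum were not called. Leukocyte markers came to 10.8 to 12.3 CPM and 15.6 to 17.3 CPM, with Ptprc at 0 counts, and endothelial markers to 3.01 to 4.47 CPM and 2.81 to 3.91 CPM. The part of these shifts in the feedback genes' values was not tested.

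**Figure D1:**
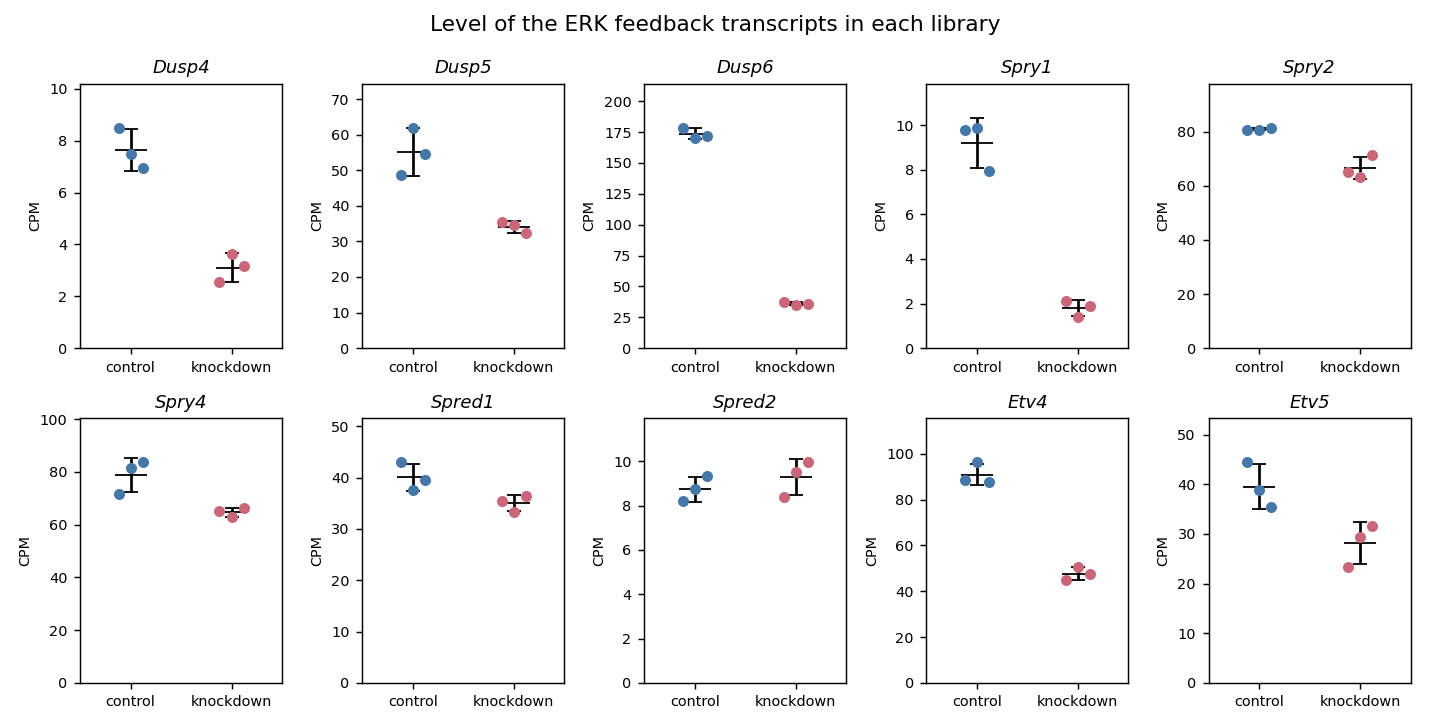
Level of each feedback transcript in CPM (vertical axes, each from 0) in 3 control and 3 knockdown libraries. Points are libraries, wide bars the group mean and error bars the SD; the groups overlap for Spred2 and for none of the other 9 genes.

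Among the phosphatase genes, Dusp6 changed most. Dusp6 encodes a cytoplasmic phosphatase that is selective for ERK and holds it outside the nucleus. It had 179, 170 and 172 CPM in control replicates 1 to 3 and 37.1, 34.6 and 35.7 CPM in knockdown replicates 1 to 3. The libraries of each group lay close together, and the groups were far apart. Knockdown libraries held on average 20.6% of the control level, a log2 fold change of -2.28 (SE 0.0561). Ordered from the lowest fold change, Dusp6 stood at place 66 of 14216 tested genes and Tug1 itself at place 79. The promoter of this gene is the one with the 2 Capicua octamers shown above. Spry4, the other gene with an octamer, was at -0.29, and Spry1, with none in its promoter, at -2.35. A link between the octamers and the fold changes was not tested.

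Dusp4 encodes a nuclear phosphatase that acts on ERK and on other MAP kinases. It was a weakly detected transcript, with 111, 97 and 90 counts in the controls and 35, 49 and 42 counts after knockdown, or 8.50, 7.50 and 6.93 CPM against 2.53, 3.62 and 3.17 CPM. Every knockdown library lay well below the lowest control. Its log2 fold change was -1.30 (SE 0.173), and the spread between replicates was wide, with a coefficient of variation of 10.4% in controls and 17.6% after knockdown.

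Dusp5 encodes a nuclear phosphatase that is selective for ERK and retains it there. It had 48.7, 62.0 and 54.7 CPM in control replicates 1 to 3 and 35.4, 34.5 and 32.3 CPM in knockdown replicates 1 to 3. The controls were more spread than the knockdown libraries, and control replicate 1 was the lowest of them. The log2 fold change was -0.69 (SE 0.078), leaving 61.8% of the control level.

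The 3 phosphatase genes therefore did not keep their proportions, which can be read from counts within each library without any scaling. For every 100 counts of Dusp5 there were 367, 274 and 315 counts of Dusp6 in controls and 105, 100.4 and 110 after knockdown. For every 100 counts of Dusp6 there were 4.76, 4.41 and 4.03 counts of Dusp4 in controls and 6.84, 10.4 and 8.86 after knockdown. Neither ratio overlapped between the groups, so Dusp6 was reduced by a larger factor than both of its relatives.

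Sprouty proteins are induced by growth factors and dampen signalling between the receptor and RAF. Spry1 was at 9.80, 9.89 and 7.93 CPM in control replicates 1 to 3 and at 2.10, 1.40 and 1.88 CPM in knockdown replicates 1 to 3. This rested on 103 to 128 counts per control library and 19 to 29 per knockdown library. Every knockdown library was far below every control library, with 19.5% of the control level left and a log2 fold change of -2.35 (SE 0.188). It was the lowest fold change of the set and stood at place 61 from the lowest of all tested genes.

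Spry2 and Spry4 were only a little lower. Spry2 had 80.8, 80.5 and 81.5 CPM in control replicates 1 to 3 and 65.3, 63.2 and 71.2 CPM in knockdown replicates 1 to 3. The controls nearly coincided, and knockdown replicate 3 lay above the other two. The log2 fold change was -0.28 (SE 0.0576), which became -0.14 when the trend of fold change with gene length in the genome was removed from each library, still past the threshold. Spry4 had 71.7, 81.3 and 83.5 CPM in control replicates 1 to 3 and 65.0, 62.8 and 66.2 CPM in knockdown replicates 1 to 3, a log2 fold change of -0.29 (SE 0.0616). Its control replicate 1 was the closest to the knockdown libraries.

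Within the family, Spry1 differed from the other two. Per 100 counts of Spry2 there were 12.1, 12.3 and 9.74 counts of Spry1 in controls and 3.22, 2.22 and 2.65 after knockdown, with no overlap. Per 100 counts of Spry4 there were 97.5 to 113 counts of Spry2 in controls and 100.4 to 108 after knockdown, ranges that overlapped.

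SPRED proteins carry a Sprouty-like domain and bring the RAS-inactivating protein neurofibromin, encoded by Nf1, to the membrane. Spred1 had 43.0, 37.6 and 39.5 CPM in control replicates 1 to 3 and 35.5, 33.2 and 36.3 CPM in knockdown replicates 1 to 3. The groups did not overlap, but control replicate 2 and knockdown replicate 3 were only slightly apart. Its log2 fold change of -0.19 (SE 0.0716) was the smallest among the 9 lower genes, and it was the only one of them whose call depended on the analysis. It missed the threshold without control replicate 1 (-0.14), without knockdown replicate 2 (-0.15), with library totals in place of TMM (-0.14), with DESeq2's Wald test (-0.20) and at an adjusted p of 0.01. With the gene length trend removed it was at -0.32 and passed.

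Spred2 was the exception in the set. It had 8.19, 8.73 and 9.32 CPM in control replicates 1 to 3 and 8.39, 9.53 and 9.95 CPM in knockdown replicates 1 to 3. The groups overlapped, and the log2 fold change of 0.09 (SE 0.126) did not pass the threshold. Its sign turned to -0.11, again without a call, when the gene length trend was removed; at 101567 bp it is the longest gene of the set in the GRCr8 gene table. Counts of Spred1 per 100 counts of Spred2 were 424 to 524 in controls and 349 to 423 after knockdown, which did not overlap by a narrow margin.

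The PEA3 factors are the transcription factors of the set. Etv4 had 88.7, 96.2 and 87.8 CPM in control replicates 1 to 3 and 44.8, 50.5 and 47.6 CPM in knockdown replicates 1 to 3. Its groups were well separated, with 52.4% of the control level left and a log2 fold change of -0.93 (SE 0.0613). Etv5 had 44.4, 38.8 and 35.4 CPM in control replicates 1 to 3 and 23.4, 29.4 and 31.6 CPM in knockdown replicates 1 to 3. Its coefficient of variation after knockdown, 15.1%, was the widest among the members above 10 CPM, and control replicate 3 and knockdown replicate 3 came close to each other. The log2 fold change of Etv5 was -0.49 (SE 0.0958). Over the 6 fits with 1 library left out it lay between -0.58 and -0.37, past the threshold each time. Per 100 counts of Etv5 there were 200 to 248 counts of Etv4 in controls and 151 to 192 after knockdown, with no overlap.

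Further members of the same families were compared to see whether the lower levels ran through whole families. Of 10 such genes, Dusp2 and Dusp9 were near 0 counts and not tested. Of the other 8, 7 were called in the edgeR fit, 4 lower and 3 higher, where 30.9% and 30.8% of all tested genes were. Spred3, the third SPRED gene, had 41.1, 46.2 and 41.0 CPM in control replicates 1 to 3 and 25.0, 24.7 and 24.6 CPM in knockdown replicates 1 to 3. Its groups were well apart, and its log2 fold change was -0.79 (SE 0.0738, adjusted p 3.35e-09 in edgeR), beside -0.19 for Spred1, while the Sprouty gene Spry3 did not pass (-0.26, SE 0.221). Spry3 was at -0.012 without knockdown replicate 3 and at -0.44 without knockdown replicate 2. Dusp7, which encodes a close relative of the Dusp6 phosphatase, fell by 0.58 on the log2 scale (adjusted p 2.79e-08 in edgeR).

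The phosphatases that act mainly on the stress kinases JNK and p38 moved apart. Dusp8 fell by 0.60 and Dusp10 by 0.33 on the log2 scale, while Dusp16 rose by 0.37, or by 0.20 with the gene length trend removed. Dusp1, an immediate early gene with a broad MAP kinase range, averaged 79.5 ± 2.98 CPM in control and 87.3 ± 3.95 CPM in knockdown libraries (SD, n = 3). Its rise of 0.14 had an adjusted p of 0.0389 in edgeR and overlapping groups, and it missed the threshold under 7 alternatives, 4 of which left out a library. With the gene length trend removed it was at 0.32 and called. Etv1, the third PEA3 gene, rose by 0.31 (adjusted p 0.0195 in edgeR), against the lower Etv4 and Etv5, but was at 0.13 and not called with the gene length trend removed, and at 0.22 and not called without knockdown replicate 1.

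**Figure D2:**
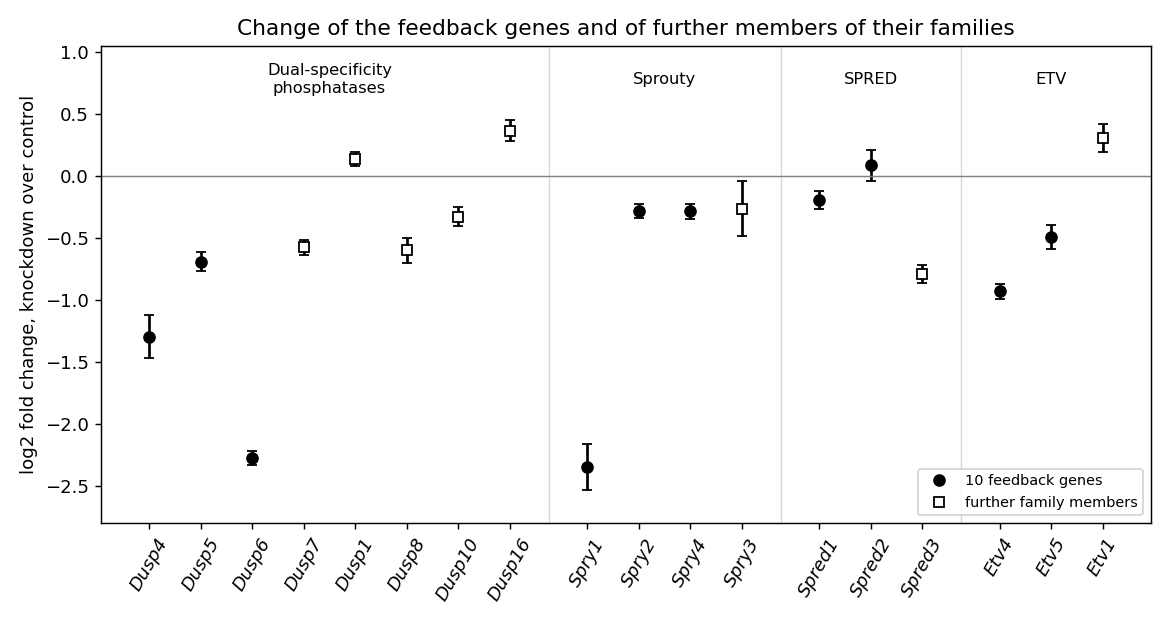
Log2 fold change of knockdown over control (vertical axis) with its SE for the 10 feedback genes (filled circles) and the 8 tested further members of their families (open squares). Dusp6 and Spry1 lie below -2, and Dusp1, Dusp16, Etv1 and Spred2 lie above 0.

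The cascade that feeds ERK was described with a list of 42 genes, of which 39 were tested. This list was written with earlier results of these data known, so its counts are not independent of them. A total of 31 (79.5%) were called, 22 higher and 9 lower, beside 61.7% of all tested genes, split about evenly (30.8% higher and 30.9% lower). The median log2 fold change was 0.26 beside 0.00 for all tested genes. Many genes of this list, though not all, were longer than the median tested gene (22378.5 bp), such as Braf (147160 bp). The split by direction and the median were not recomputed with the gene length trend removed, so the part of gene length in them was not tested. The receptor adaptors, grouped with the phosphatase gene Ptpn11, which rose, had 5 higher, 0 lower and 2 not called out of 7. The RAF kinase genes Araf and Braf rose by 0.65 and 0.47, and Braf was at 0.20 with the gene length trend removed. Of 7 genes for RAS GTPase-activating proteins, which switch RAS off, 5 rose and 2 fell, Nf1 (-0.25, and -0.59 with the trend removed) and Rasa1 (-0.35). Araf, Braf, Nf1 and Rasa1 were picked out after their values were seen. Among the 6 RAS genes, 1 rose, 2 fell and 3 were not called.

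At the end of the cascade, the MEK genes went opposite ways, Map2k1 falling by 0.32 and Map2k2 rising by 0.37 on the log2 scale (edgeR adjusted p 1.64e-06 and 7.39e-07). Mapk3, a gene for ERK itself, was at -0.18 (SE 0.0476, adjusted p 0.00269 in edgeR) and lost its call with the gene length trend removed (-0.06).

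The furthest change in the cascade list was that of Rasgrp3, an exchange factor that loads RAS with GTP in response to diacylglycerol. It had 113, 111 and 108 CPM in control replicates 1 to 3 and 25.4, 31.1 and 26.5 CPM in knockdown replicates 1 to 3, a log2 fold change of -2.00 (SE 0.0676, adjusted p 1.85e-16 in edgeR). The GTPase-activating protein gene Rasal2 rose by 1.17, or by 0.80 with the gene length trend removed. The exchange factor gene Sos2 rose by 0.88, or by 0.67 with the trend removed and the replicate number as a block. The RAS relative Rras2 fell by 0.69. Rasgrf1 rose by 1.56 (SE 0.409) from only 13, 3 and 4 counts to 20, 20 and 22 counts, and was at 2.46 without control replicate 1.

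ERK acts through kinases and DNA-binding proteins, and of 17 tested genes for these, 7 rose, 5 fell and 5 were not called; the share called, 70.6%, lay near the 61.7% of all tested genes. The kinase genes Rps6ka3, Mknk1 and Rps6ka5 rose by 0.99, 0.58 and 0.47. With the gene length trend removed they were at 0.79, 0.52 and 0.18, the last without a call. The kinase genes Rps6ka4 and Mknk2, outside the named genes, fell by 0.41 and 0.28 in the reported fit. The ETS factor genes Elk4 and Ets1 rose by 0.82 and 0.53, and Ets1 was at 0.30 with the trend removed, while Ets2 fell by 0.58. Cic, the gene for Capicua, averaged 163 ± 12.6 CPM in control and 168 ± 16.7 CPM in knockdown libraries (SD, n = 3). Its log2 fold change of 0.04 (SE 0.0635) did not pass the threshold, and its sign turned when control replicate 3 or knockdown replicate 2 was left out.

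A further list held 34 transcripts known to follow ERK activity in other cells, and 32 were tested. A total of 29 were called lower and 1 higher, beside 30.9% and 30.8% of all tested genes, and their median log2 fold change was -0.89. Among the called genes, 14 had a log2 fold change of -1 or below and 0 had one of 1 or above, where all tested genes gave 5.21% and 4.59%. This list was also written with earlier results of these data known, so its counts are not independent of them. The lowest values were those of the immediate early factor genes Egr3 (-2.58, SE 0.332) and Egr2 (-1.94, SE 0.273), of Sprr1a (-2.49, SE 0.343), of the synaptic immediate early gene Arc (-1.89, SE 0.156), of the interleukin receptor gene Il1rl1 (-1.85, SE 0.0826) and of the immediate early gene Ier2 (-1.82, SE 0.0665). Egr3 was down to 3, 13 and 9 counts after knockdown and Sprr1a to 6 counts in each library. Ier2 had 111, 119 and 102 CPM in controls against 30.3, 33.1 and 30.6 CPM, with no overlap. With the gene length trend removed Egr3, Egr2, Arc, Il1rl1 and Ier2 were at -2.44, -1.81, -1.72, -1.98 and -1.60. The transcripts that did not fall were Nr4a1, which rose by 0.37, and Ier3 (-0.03) and Btg2 (0.03), which did not pass but were called higher with the gene length trend removed (0.20 and 0.19); these 3 were picked out after their values were seen.

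A published score of MAP kinase activity joins 6 of the feedback genes with Phlda1, Ccnd1, Epha2 and Epha4, which were picked out here after their values were seen. All 4 fell, Phlda1 by 0.80, Ccnd1 by 0.82, Epha2 by 0.75 and Epha4 by 0.43 on the log2 scale (edgeR adjusted p 5.75e-11, 6.41e-13, 2.64e-10 and 5.94e-05). With the gene length trend removed they were at -0.60, -0.73, -0.77 and -0.69 in that order. Ccnd1, the gene for cyclin D1, averaged 997 ± 48.8 CPM in control and 566 ± 20.6 CPM in knockdown libraries (SD, n = 3).

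**Figure D3:**
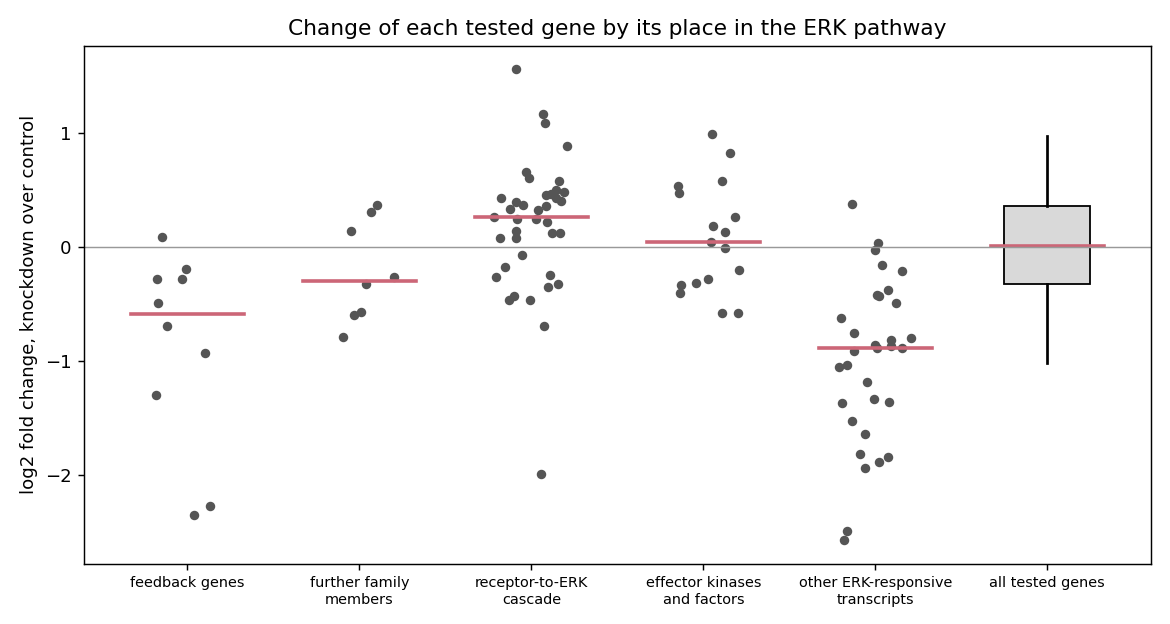
Log2 fold change of knockdown over control (vertical axis) of each tested gene, by place in the pathway; horizontal position within a column is random and red bars are medians. The last column shows all 14216 tested genes, with the box from the 25th to the 75th percentile and lines from the 5th to the 95th; the medians are -0.59, -0.30, 0.26, 0.04, -0.89 and 0.00 from left to right.

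The genes whose profile came closest to that of Dusp6 were sought among 9070 tested genes with a mean of at least 10 CPM. Likeness was the root mean square difference of log2 CPM, centred on the control mean, over the 6 libraries. The nearest was Tug1 itself (0.0823), then the homeobox gene Hoxd13 (0.108), the membrane protein genes Tm4sf1 (0.122) and Tmem151a, and the long non-coding RNA Dancr (0.163). With 2 groups this measure mostly says that the 5 genes were reduced by a similar factor.

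**Figure D4:**
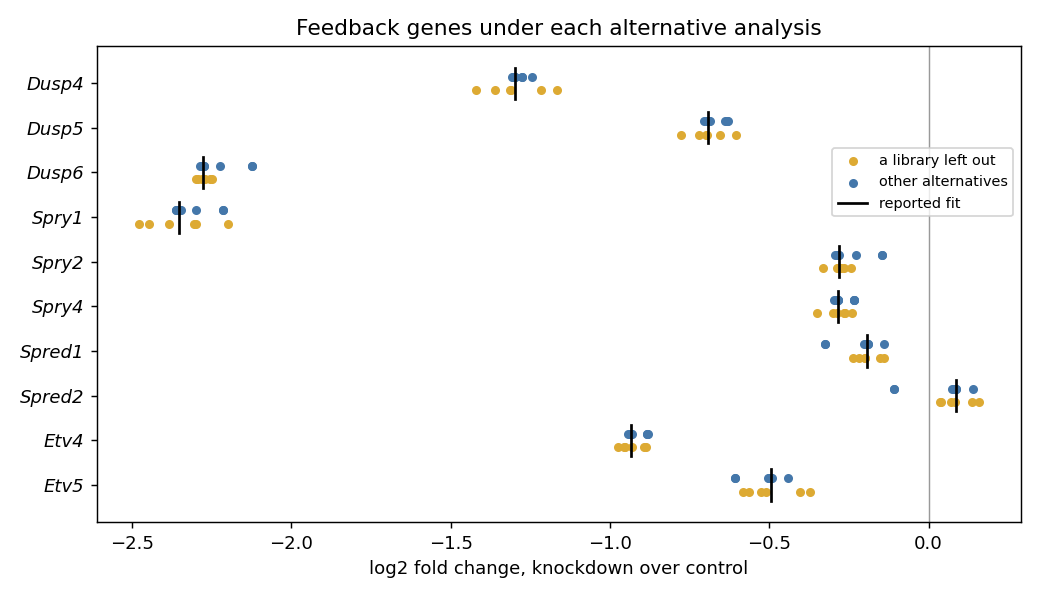
Log2 fold change of knockdown over control (horizontal axis) of the feedback genes in the reported fit (black bars), with each library left out (yellow) and under the other alternatives (blue). Spred2 is the only gene of the 10 with points on both sides of 0, and Spred1 stays below 0 throughout.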

How the data were processed

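The deposited table holds whole-number counts for each gene symbol, unscaled and with 1 column per library, as the values show. FastQC 0.11.7, fastp 0.14.1 and STAR 2.5 appear in the submitters' processing notes; the counting tool, build, annotation and use of strand are not given in the sources used here, so reads shared between related or overlapping genes could have been split in ways not known. Per the labels' protocols, stranded poly-A libraries were made from 500 ng of RNA.

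Counts were fitted in R 4.3.3 with edgeR 4.0.16 (expression filter with minimum count 10 and minimum total 15, TMM, quasi-likelihood test, two-sided), with Benjamini-Hochberg adjustment over 14216 genes and a threshold of 0.05. In simulated data with 200 genes changed, the method recovered 80.8% of those changed by 0.5 on the log2 scale and 90.6% of those changed by 1. Of its calls there, 6.18% were false. In the libraries here 61.7% of 14216 genes were called, and recovery with so many genes changed was not tested. Fold changes are knockdown over control, and group values are mean ± SD of 3 libraries. Counting error grows below about 10 CPM.

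The members and all lists were chosen with earlier results of these data known. Named genes were the 10 members, Tug1, Mapk3, Map2k1, Map2k2, Cic, the tested further family members, up to 6 called genes of each other list with the largest change among those averaging 1 CPM or more whose groups did not overlap, and the 5 genes nearest to Dusp6; a few genes that met this rule are counted but not reported here. Genes said above to be picked out after their values were seen were added to the named genes. The gene length analysis took from each library a lowess curve (span 0.3) fitted to log2 deviations along log2 genomic length. It covered 13084 genes with a length in the GRCr8 table.

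Replicate numbers were not used as a pairing. In the 3 same-numbered pairs, deviations from group means had correlations of -0.00531, 0.0298 and 0.027. Pairs with different numbers had correlations between -0.0323 and 0.00586.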

Additional observations from a re-analysis of the deposited data

How the results depend on the processing

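Each value was recomputed under 16 alternatives: DESeq2 size factors, library totals, limma-voom (limma 3.58.1), the Wald test of DESeq2 1.42.0, all genes with 1 count or more, genes averaging 1 CPM or more, an adjusted p of 0.01, the replicate block, the gene length trend removed with and without that block, and each of 6 libraries left out. Tug1 ran from -2.22 to -2.08. Called feedback genes numbered 8 or 9 throughout. Dusp4, Dusp5, Dusp6, Spry1, Spry2, Spry4, Etv4 and Etv5 were called lower in all 16, Spred1 in 11 and Spred2 in 0. Called genes numbered 5 to 7 among further family members, 27 to 34 in the cascade, 11 or 12 among effectors and 29 or 30 among other ERK-responsive transcripts.

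Named genes besides Tug1, including those picked out after their values were seen, numbered 56. Of these, 47 kept direction and call under all alternatives. Spred2 was at -0.11 with the gene length trend removed, with or without the block. Cic ran from -0.044 (without knockdown replicate 2) to 0.088 when a library was left out, with -0.017 without control replicate 3. Ier3 was at 0.20 with the trend removed, without and with the block (0.201 and 0.199), at 0.021 with library totals, and ran from -0.073 to 0.045 (without knockdown replicate 3) when a library was left out. Btg2 ran from -0.0015 (without control replicate 1) to 0.069 over the 6 fits with a library removed. It was called higher with the trend removed. Calls were lost in 7 alternatives for Dusp1, 5 each for Etv1 and Spred1, and in 2, both with the trend removed, for Mapk3 and for Rps6ka5. Some of these fits held fewer libraries or genes, and the cause of the changes was not tested. With the replicate number as a block, 8848 genes were called in place of 8773, and the block alone changed no call of a named gene. The labels do not say whether the numbers pair the libraries. Dusp4, Spry1 and Spred2, below 10 CPM, are the members whose precision depth limits most.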
